A study of Mus musculus with 2 samples.

Results

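The 7 members of the BAFF, APRIL and CD40 axis were followed across cells of mouse salivary gland, namely the 3 ligand genes *Tnfsf13b* (BAFF), *Tnfsf13* (APRIL) and *Cd40lg* (CD40L) and the 4 receptor genes *Tnfrsf13b* (TACI), *Tnfrsf13c* (BAFF-R), *Tnfrsf17* (BCMA) and *Cd40*. They are 7 of the 50768 genes listed for both libraries and were chosen by symbol, for their place in the pathway. The single-cell RNA sequencing (scRNAseq) compared 1 library of NOD/ShiLtJ, an inbred strain that develops salivary gland inflammation and diabetes, with 1 library of CD1, an outbred strain used as the control. Each library came from pooled submandibular and adjacent sublingual glands of untreated 20-week-old female mice, 4 per strain by the study's methods and 3 by the sample labels. Cells bearing EpCAM (epithelial) or Ter119 (erythroid) were removed with beads, and the labels call the remainder Stromal Enriched and place both libraries in batch 1. With 1 library per strain no test between strains was possible, strain cannot be told apart from library, and the intervals given are 95% intervals that cover counting error only.

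BAFF and APRIL are ligands of the tumor necrosis factor superfamily that keep B cells and plasma cells alive. BAFF binds BAFF-R, TACI and BCMA, whereas APRIL binds TACI and BCMA. CD40L is carried by activated helper T cells and signals through CD40 on B cells, dendritic cells and macrophages. Excess BAFF is a known feature of Sjögren's disease, in which lymphocytes gather in the salivary glands.

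The unit of measurement was the unique molecular identifier (UMI), which stands for 1 captured RNA molecule. Barcodes with at least 500 UMIs and 300 genes were kept, which left 6500 barcodes with 43439635 UMIs in NOD and 7014 barcodes with 49420810 UMIs in CD1. A barcode was given the lineage whose marker genes held the most UMIs, and the lineages are called B-like, T-like and so on. NOD held 903 B-like, 69 plasma-like, 2182 T-like, 575 NK-like, 717 macrophage-like and 1061 endothelial-like barcodes, and CD1 held 9, 14, 152, 363, 2976 and 2897 of them. Thus B-like and plasma-like barcodes were too few in CD1 for a comparison, which was made only for the T-like, NK-like, macrophage-like and endothelial-like lineages, each with at least 50 barcodes in both libraries. Between the libraries 18 kept barcode sequences were shared, and leaving them out turned no direction. Levels are given as CPM, the UMIs of the gene scaled to 1000000 UMIs of the lineage. Because droplets also take up free RNA, the level in empty droplets and the level that free RNA was estimated to add are given where they matter.

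RefSeq promoter windows of 300 bases, from 250 bases before to 50 bases after the transcription start on GRCm38.p6, were found for 5 of the 7 genes, in 6 windows. For 5 motifs, matches were looked for on both strands in these windows, and 2 of the 6 windows held a match. The 2 windows with a match are printed 5′ to 3′ along the gene in lower case with the matches in capitals. They belong to the ligand with the most UMIs in CD1 and to the receptor most tied to 1 lineage. The printed *Tnfsf13b* window lies at chr8:10006383-10006682 (plus strand) and the *Tnfrsf17* window at chr16:11313559-11313858 (plus strand). Another *Tnfsf13b* window, at chr8:10006217-10006516, held no match.
Tnfsf13b: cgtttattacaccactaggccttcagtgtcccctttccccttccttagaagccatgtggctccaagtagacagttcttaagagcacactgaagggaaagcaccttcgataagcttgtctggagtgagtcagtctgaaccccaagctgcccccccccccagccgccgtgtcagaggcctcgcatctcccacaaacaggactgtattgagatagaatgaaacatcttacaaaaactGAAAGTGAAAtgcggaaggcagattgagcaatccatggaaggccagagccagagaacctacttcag
Tnfrsf17: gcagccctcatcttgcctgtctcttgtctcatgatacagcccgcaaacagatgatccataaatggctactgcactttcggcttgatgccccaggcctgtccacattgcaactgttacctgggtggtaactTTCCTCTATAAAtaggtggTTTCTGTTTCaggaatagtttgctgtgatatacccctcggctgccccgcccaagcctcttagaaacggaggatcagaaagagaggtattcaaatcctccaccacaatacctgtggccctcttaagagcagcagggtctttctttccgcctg
In the *Tnfsf13b* window the capitals mark the core of the interferon-stimulated response element (GAAA, any 2 bases, GAAA), which began at position -16 from the start. That motif was present in 3.44% of the 32851 promoter windows. The *Tnfrsf17* window held the same core on the minus strand at -101, the PU.1 core GAGGAA on the minus strand at -120 (28.3% of all windows) and the TATA box TATAAA at -114 (13.6%). The 2 last matches adjoin each other without sharing bases. The NF-kB site (GGG, any 3 bases, TTCC, 5.56% of all windows) and the octamer ATTTGCAT (1.74%) were not found in the 6 windows. A match is a description of letters, and binding was not measured.

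BAFF transcripts lay in macrophage-like barcodes in both strains, and their level there was lower in NOD. In CD1, 6255 of 6574 *Tnfsf13b* UMIs (95.1%, 94.6 to 95.7) were in macrophage-like barcodes. In NOD the macrophage-like share was 896 of 1145 UMIs (78.3%, 75.7 to 80.6). The macrophage-like level was 209 CPM (195 to 223) in NOD and 309 CPM (301 to 317) in CD1, a log2 ratio of NOD over CD1 of -0.57 (-0.67 to -0.46). A *Tnfsf13b* UMI was present in 46.4% of macrophage-like barcodes in NOD and in 65.0% in CD1. The NOD barcodes were shallower, with a median of 3360.0 UMIs against 6988, and after thinning each barcode to 500 UMIs the shares were 7.53% and 12.3%. For comparison, the thinned share in endothelial-like barcodes was 0.28% in NOD and 0.21% in CD1.

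**Figure D1:**
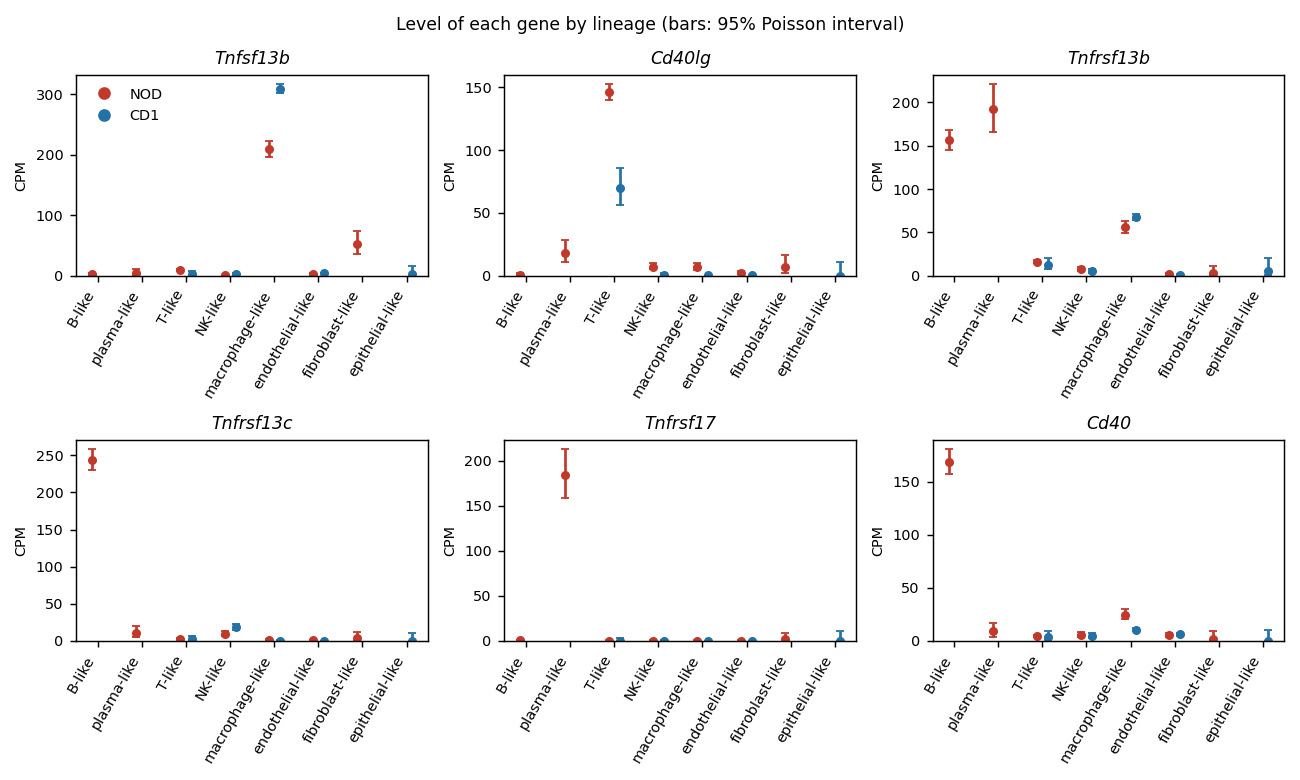
Level (CPM, y axis) of 6 genes in each lineage (x axis) with at least 50 barcodes, for NOD (red) and CD1 (blue), with 95% Poisson intervals. *Tnfsf13b* stood at 209 CPM in NOD and 309 CPM in CD1 macrophage-like barcodes, and the receptors were highest in NOD B-like or plasma-like barcodes, which CD1 nearly lacked.

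The lower BAFF level in NOD was seen at each depth of macrophage-like barcode. In barcodes with 500 to under 2000 UMIs it was 95.5 CPM in NOD and 182 CPM in CD1. Between 2000 and 5000 UMIs the levels were 164 and 219.9 CPM, and between 5000 and 10000 UMIs they were 283 and 341 CPM. At 10000 UMIs and above, NOD stood at 193 CPM and CD1 at 307 CPM. The log2 ratio in these 4 depth ranges was -0.93, -0.42, -0.27 and -0.67, and its interval excluded 0 in each. Cycling barcodes, with UMIs of both *Mki67* and *Top2a*, gave 152 CPM in NOD (14 barcodes) and 346 CPM in CD1 (67 barcodes), and the others gave 212 and 307 CPM. The 9 macrophage markers measured summed to 12920 CPM in NOD and 13374 CPM in CD1. T cell markers moved with strain in these barcodes, at 167 CPM in NOD and 10.0 CPM in CD1, and their part in the ratio was not tested.

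**Figure D2:**
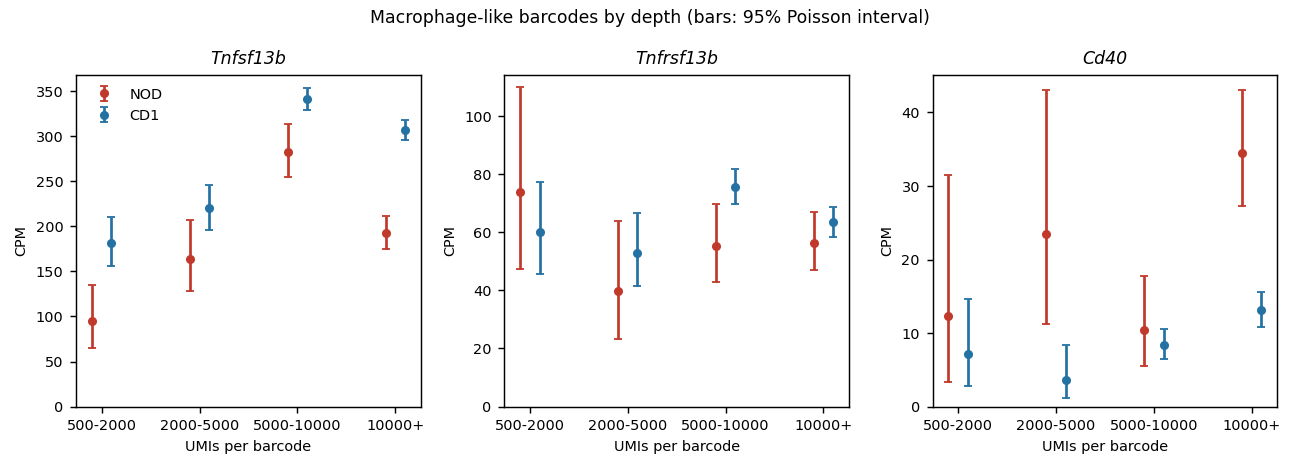
Level (CPM, y axis) of *Tnfsf13b*, *Tnfrsf13b* and *Cd40* in macrophage-like barcodes split by UMIs per barcode (x axis), for NOD (red) and CD1 (blue), with 95% Poisson intervals. *Tnfsf13b* was lower in NOD in all 4 depth ranges (95.5 against 182 CPM in the shallowest). The *Cd40* intervals of the strains overlapped from 500 to 2000 UMIs and from 5000 to 10000 UMIs (10.4 CPM in NOD and 8.32 CPM in CD1).

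Outside macrophages, T-like and fibroblast-like barcodes held most of the rest of the NOD BAFF transcripts. NOD T-like barcodes carried 122 *Tnfsf13b* UMIs, 10.7% of the library's, at 8.56 CPM (7.11 to 10.2), of which free RNA was estimated to add 0.611 CPM. A UMI was present in 94 of the 2182 T-like barcodes (4.31%), against 1.04% of endothelial-like barcodes, at median depths of 6010.5 and 5154 UMIs. Within T-like barcodes the level was 12.4 CPM where *Cd4* was detected without *Cd8a*, *Cd8b1* and *Foxp3*, 7.52 CPM where *Cd8a* or *Cd8b1* was detected without *Cd4* and *Foxp3*, and 2.48 CPM, from 4 UMIs, where *Foxp3* was. Macrophage markers summed to 53.3 CPM in the T-like barcodes with a *Tnfsf13b* UMI and to 20.5 CPM in those without, and 13 of the 94 held any macrophage marker UMI. CD1 T-like barcodes held 3 UMIs (2.33 CPM), below the 3.34 CPM estimated for free RNA there. The log2 ratio was 1.88 (0.30 to 4.18) in T-like barcodes. It was -1.26 after thinning, so no direction can be read from it. NOD fibroblast-like barcodes held 33 UMIs (53.0 CPM, 36.5 to 74.4) in 10 of 62 barcodes, and macrophage markers were at 564 CPM in those 10 and at 692 CPM in the others. The 22 CD1 fibroblast-like barcodes held 2 UMIs.

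APRIL could not be read from these counts. *Tnfsf13* had 4 UMIs in the NOD library and 5 in the CD1 library. In the GENCODE annotation of GRCm38, 983 of the 1637 exon bases of *Tnfsf13* are also exons of *Tnfsfm13* on the same strand, a read-through gene that joins *Tnfsf12* and *Tnfsf13*, and Cell Ranger leaves out reads that fit more than 1 gene. *Tnfsfm13* had 0 UMIs in the kept NOD barcodes and 15 in the CD1 ones. On the other side of the read-through, *Tnfsf12* (TWEAK) had 587 and 1816 UMIs. None of the other 6 genes shared exon bases with another gene in that annotation.

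CD40L was a T cell transcript, and NOD held most of it. T-like barcodes carried 2084 of the 2423 *Cd40lg* UMIs in NOD (86.0%, 84.6 to 87.4) and 90 of the 114 in CD1 (78.9%). The level was 146 CPM (140.0 to 153) in NOD and 69.8 CPM (56.1 to 85.8) in CD1 T-like barcodes, a log2 ratio of 1.07 (0.76 to 1.39). A *Cd40lg* UMI was present in 34.6% of T-like barcodes in NOD and in 26.3% in CD1. After thinning to 500 UMIs the shares were 5.82% and 7.24% and the log2 ratio was -0.16 (-1.05 to 0.87), so the order of the strains was not kept. Among the T-like barcodes with *Cd4* and without *Cd8a*, *Cd8b1* and *Foxp3* the levels were 246 CPM in NOD (846 barcodes) and 206 CPM in CD1 (35 barcodes), with a log2 ratio of 0.25 (-0.12 to 0.65). Thus within *Cd4* barcodes a strain difference was not detectable at this depth. In barcodes with neither *Cd4*, *Cd8a*, *Cd8b1* nor *Foxp3*, which were 527 in NOD and 90 in CD1, the levels were 122 and 42.6 CPM, a log2 ratio of 1.52 (0.98 to 2.10). They were 527 of the 2182 NOD but 90 of the 152 CD1 T-like barcodes. The make-up of the T-like class thus differed between the libraries, and its part in these ratios was not tested.

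Within NOD T-like barcodes, *Cd40lg* was low where *Foxp3*, the regulatory T cell factor, was detected (39.6 CPM, 30.5 to 50.6) and where *Cd8a* or *Cd8b1* was (33.9 CPM, 28.2 to 40.3). Of the NOD T-like barcodes with *Cd40lg*, 60.7% had *Icos*, a costimulator of helper T cells, against 39.9% of those without. *Il21*, the helper cytokine that acts on B cells, was found in 7.28% of the former and 1.47% of the latter. *Cxcr5*, the follicle homing receptor, was found in 8.74% and 6.52%. The barcodes with *Cd40lg* were deeper, at a median of 7046 against 5425 UMIs, so these shares were not taken at equal depth. In NOD macrophage-like barcodes 29 *Cd40lg* UMIs lay in 10 barcodes, 8 of which held T cell marker UMIs (1557 CPM against 112 CPM in the rest).

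**Figure D3:**
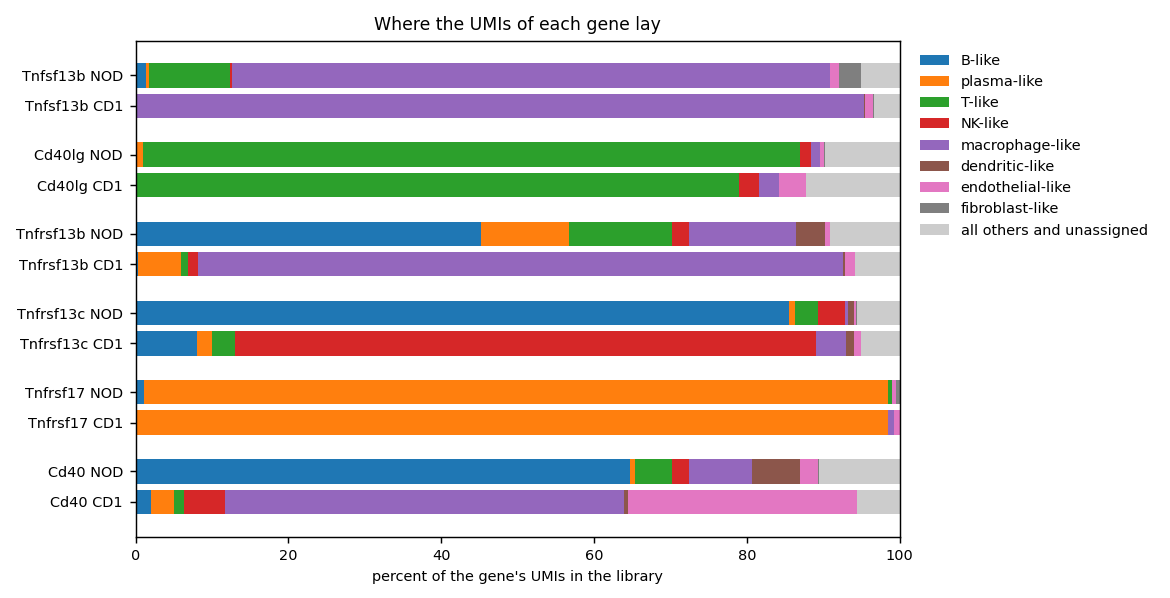
Percent of the UMIs of 6 genes (x axis) that lay in each lineage (colors), with 1 bar per gene and strain and the remaining barcodes in grey. Macrophage-like barcodes held 78.3% of the NOD and 95.1% of the CD1 *Tnfsf13b* UMIs, and NK-like barcodes held 76.0% of the CD1 *Tnfrsf13c* UMIs.

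In NOD, BAFF-R was found in B-like and BCMA in plasma-like barcodes, whereas TACI was found in both. BAFF-R is the receptor through which BAFF keeps mature B cells alive. B-like barcodes held 1200 of the 1403 NOD *Tnfrsf13c* UMIs (85.5%, 83.6 to 87.3), at 244 CPM (230.1 to 258), and a UMI was present in 53.5% of them. The level was 264 CPM (248 to 280.5) where the follicular B cell markers *Ighd* or *Fcer2a* were detected and 162 CPM (137 to 189) in the 244 B-like barcodes without both. Depth moved with this split, at a median of 5898 against 2188 UMIs. Mitochondrial share moved with the level between the 2 NOD B cell clusters, where *Tnfrsf13c* was at 258 CPM in 641 barcodes (5.82% mitochondrial UMIs, median) and at 96.6 CPM in 312 barcodes (20.9%), and the part of depth and RNA quality was not tested. In barcodes with at most 10% mitochondrial UMIs the B-like level was 265 CPM. In NOD plasma-like barcodes it was 10.8 CPM (5.41 to 19.4), and free RNA was estimated to add 11.6 CPM there. That estimate takes 29.1% of their UMIs as free RNA, against 13.3% in B-like and 3.52% in T-like barcodes of NOD. It is scaled to markers that include those of T cells, which summed to 870 CPM in the plasma-like barcodes. The part of mixed barcodes in the estimate was not tested, so the 10.8 CPM cannot be assigned to free RNA. The 9 CD1 B-like barcodes held 8 UMIs.

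TACI, which binds both ligands, was present in B-like, plasma-like and macrophage-like barcodes. In NOD, *Tnfrsf13b* was at 156 CPM (146 to 168) in B-like, 192 CPM (166 to 221) in plasma-like and 55.7 CPM (48.9 to 63.2) in macrophage-like barcodes. B-like barcodes held 45.2% (42.8 to 47.6) of the NOD *Tnfrsf13b* UMIs. The 41 NOD dendritic-like barcodes held 63 UMIs (98.9 CPM, 76.0 to 127). Among the clusters, 1 of 22 barcodes led by *Grm8* and *Siglech*, the latter a plasmacytoid dendritic cell gene, held 82 UMIs (197 CPM). Some of its barcodes thus lay outside those 41. In NOD T-like barcodes the level was 16.2 CPM (14.2 to 18.4), and where *Foxp3* was detected it was 29.7 CPM (21.9 to 39.4). Among B-like barcodes *Tnfrsf13b* was at 151 CPM (139 to 163) with *Ighd* or *Fcer2a* and at 179 CPM (153 to 208) without, and these intervals overlapped, whereas those of *Tnfrsf13c* did not.

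In CD1, which had few B cells, most TACI transcripts were in macrophages. Macrophage-like barcodes held 1367 of the 1621 CD1 *Tnfrsf13b* UMIs (84.3%, 82.5 to 86.1), at 67.5 CPM (64.0 to 71.2), and 30.4% of them had a UMI. Endothelial-like barcodes, taken as a lineage without TACI, were at 1.80 CPM in NOD and 1.07 CPM in CD1, and free RNA was estimated to add 1.64 CPM to NOD and 0.837 CPM to CD1 macrophage-like barcodes. The log2 ratio in macrophage-like barcodes was -0.28 (-0.48 to -0.08). By depth range it was 0.30, -0.41, -0.46 and -0.17 from the shallowest to the deepest, and only the interval from 5000 to 10000 UMIs (-0.84 to -0.09) excluded 0. Of the CD1 macrophage-like barcodes with *Tnfsf13b*, 40.0% also had *Tnfrsf13b*, against 12.5% of those without, and in NOD the shares were 34.2% and 14.3%. Depth differed in the same direction, with medians of 8750.0 and 1804 UMIs in CD1.

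BCMA, the receptor of antibody-secreting cells, had the largest share of its UMIs in 1 lineage of the 6 genes that could be read. Plasma-like barcodes held 187 of the 192 NOD *Tnfrsf17* UMIs (97.4%, 94.0 to 99.1) and 133 of the 135 in CD1 (98.5%). The level was 184 CPM (159 to 213) over 69 NOD barcodes and 256 CPM (215 to 304) over 14 CD1 barcodes. With 14 barcodes in CD1 no strain ratio was taken. Those barcodes were deep, at a median of 38333 UMIs. With the 394 CD1 barcodes of highest Scrublet doublet score removed, 0 *Tnfrsf17* UMIs were left in CD1 plasma-like barcodes (upper limit 377 CPM). That limit lies above 256 CPM, so a lower level cannot be read from the 0. The number of 394 was set by a rate, and Scrublet's own threshold called 159. NK cell markers summed to 1823 CPM in the CD1 plasma-like barcodes, and the part of doublets in their values was not tested. In NOD, 35 of the 69 plasma-like barcodes had a *Tnfrsf17* UMI and 29 of these also had *Tnfrsf13b*.

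BAFF-R transcripts were also found in NK-like barcodes, where most B cell markers were at or near 0 in CD1. Of the 100 CD1 *Tnfrsf13c* UMIs, 76 lay in NK-like barcodes (76.0%, 66.4 to 84.0), in 48 of the 363 barcodes, and the 10 highest barcodes held 29 of the 76 UMIs. The level was 18.2 CPM (14.4 to 22.8) in CD1 and 9.61 CPM (7.11 to 12.7) in NOD NK-like barcodes, with a log2 ratio of -0.92 (-1.47 to -0.39). Free RNA was estimated to add 0.102 CPM in CD1 and 1.37 CPM in NOD. In the CD1 NK-like barcodes *Cd79b*, *Cd22* and *Pax5* were at 0 UMIs, *Cd79a* had 1 and *Ms4a1* had 2. *Fcrla* had 27 (6.47 CPM, against 35.6 CPM in empty droplets), *Blk* had 10 (2.40 CPM, against 0.593 CPM), *Bank1* had 4 and *Fcer2a* had 2. The 10 B cell markers summed to 11.02 CPM in CD1 and 40.4 CPM in NOD NK-like barcodes, against 9959 CPM in NOD B-like barcodes. In NOD NK-like barcodes none of the 10 was at 0 UMIs, and *Fcrla* had 71 and *Bank1* 51. These were at 13.9 and 10.0 CPM, against 73.3 and 313 CPM in NOD empty droplets. Of the 48 CD1 NK-like barcodes with *Tnfrsf13c*, 4 held a UMI of any B cell marker, and in NOD 14 of 38 did. A *Tnfrsf13c* UMI was present in 13.2% of the CD1 and 6.61% of the NOD NK-like barcodes, against 0.0345% and 0.377% of endothelial-like ones, but after thinning to 500 UMIs the NK-like shares were 0.551% and 0.522% and the log2 ratio was -0.079 (-3.20 to 3.50). These thinned shares rest on 2 and 3 barcodes, and no order was read from them. In endothelial-like and macrophage-like barcodes of CD1 the *Tnfrsf13c* level was 0.051 and 0.198 CPM. The immunoglobulin genes *Ighm* and *Ighd* were at 46.0 and 9.82 CPM in the CD1 NK-like barcodes and at 52.5 and 3.26 CPM in CD1 empty droplets. In clusters made without the 7 genes, the CD1 NK cluster stood at 15.6 CPM, and the 2 NOD NK clusters, one led by *Klra* genes and the other by *Klra5*, *Xcl1* and *Ncr1*, stood at 9.5 and 6.2 CPM.

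Most CD40 transcripts lay in B-like barcodes in NOD, and in macrophage-like and endothelial-like barcodes in CD1, which had few B cells. NOD B-like barcodes held 830 of 1283 *Cd40* UMIs (64.7%, 62.0 to 67.3), at 169 CPM (157 to 180.5), with a UMI in 50.7% of them. In NOD the 41 dendritic-like barcodes stood at 126 CPM (99.6 to 156) and 10 monocyte-like barcodes held 32 UMIs. The cluster of 22 barcodes led by *Grm8* and *Siglech*, the only one named dendritic-like in NOD, held 0 *Cd40* UMIs. With clusters in place of barcodes the dendritic-like level was thus 0 CPM (upper limit 8.87), and with a stricter lineage margin it was 86.8 CPM. CD1 had 394 UMIs, of which macrophage-like barcodes held 206 (52.3%) and endothelial-like barcodes 118 (29.9%). The 9 CD1 B-like barcodes held 8 UMIs, at 134 CPM, against 10.2 CPM in macrophage-like and 6.02 CPM in endothelial-like barcodes of CD1. Of the NOD B-like barcodes, 204 had none of *Tnfrsf13c*, *Tnfrsf13b* and *Cd40*, 248 had 1, 255 had 2 and 196 had all 3, and the median depth rose from 1699 to 7848.5 UMIs over these classes.

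In macrophage-like barcodes *Cd40* was higher in NOD, at 24.7 CPM (20.2 to 29.9) against 10.2 CPM (8.84 to 11.7), a log2 ratio of 1.28 (0.93 to 1.62). Many of the UMIs lay in few barcodes in both strains. In NOD the 10 highest of 717 barcodes held 62 of the 106 UMIs, and 18 barcodes had 2 or more. In CD1 the 10 highest of 2976 barcodes held 64 of the 206 UMIs, and 32 had 2 or more. The 10 highest are a larger part of the smaller NOD class, so no difference in concentration was read. The share of barcodes with a UMI was 6.28% in NOD and 4.37% in CD1. By depth range the log2 ratio was 0.79, 2.71, 0.32 and 1.40, and the intervals of 0.79 and 0.32 held 0. *Cd40* in NOD empty droplets was at 41.2 CPM, above the macrophage-like level, and in CD1 at 4.75 CPM, and free RNA was estimated to add 1.45 and 0.120 CPM to the macrophage-like barcodes. The NOD macrophage-like barcodes with *Cd40* had T cell markers at 424 CPM, against 131 CPM in those without, and macrophage markers at 10317 against 13282 CPM, and the part of these in the ratio was not tested. A cluster of 161 NOD barcodes that the marker lists left unnamed, led by *Lyz2*, *Adam23*, *H1f5* and *Dpp10* with *Mki67* and *Cxcl9*, stood at 81.0 CPM. Its *Tnfsf13b* level was 7.85 CPM and its *Cd40lg* level 35.3 CPM, so it cannot be read as macrophages alone. In endothelial-like barcodes *Cd40* was at 5.08 CPM (3.45 to 7.21) in NOD and 6.02 CPM (4.98 to 7.21) in CD1, and a difference was not detectable at this depth (log2 ratio -0.24, -0.86 to 0.34).

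**Figure D4:**
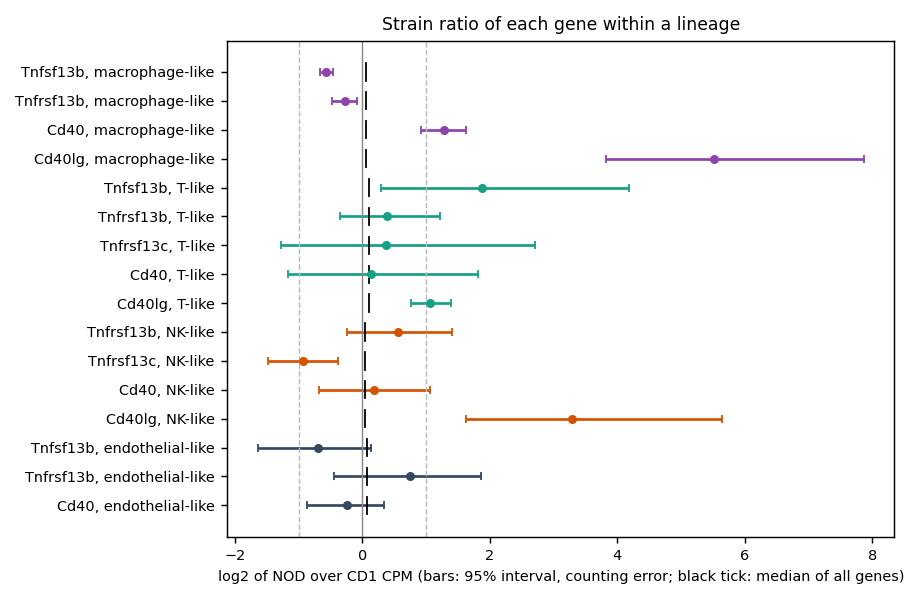
Log2 of the NOD over the CD1 level (x axis) for the 16 pairs of gene and lineage with at least 20 UMIs, with 95% intervals for counting error. Black ticks mark the median of all genes in the lineage, and dashed lines mark -1 and 1. *Tnfsf13b* (-0.57) lay below and *Cd40* (1.28) above the median in macrophage-like barcodes.

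The ratios were set against those of all genes. In macrophage-like barcodes 2 of the 4 members with at least 20 UMIs had a log2 ratio of 1 or more, *Cd40* and *Cd40lg*, the latter from 29 and 3 UMIs, where 8.0% of 14719 genes did so. None had -1 or less, where 6.28% did. In T-like barcodes *Cd40lg* and *Tnfsf13b* of 5 members reached 1 (13.2% of 13330 genes), in NK-like barcodes *Cd40lg* of 4 members did, from 36 and 3 UMIs (6.5% of 12089 genes), and in endothelial-like barcodes none of 3 did (7.83% of 14399 genes). T cell markers summed to 830.4 CPM in NOD and 453 CPM in CD1 NK-like barcodes, and their part in the *Cd40lg* ratio there was not tested. None of the members had -1 or less in T-like, NK-like or endothelial-like barcodes, where 6.52%, 4.35% and 4.13% of all genes did. The interval lay above 0 for 2 of the 5 members in T-like barcodes (18.0% of all genes) and below 0 for none (11.7%). In NK-like barcodes it lay above 0 for *Cd40lg* (20.7% of all genes) and below 0 for *Tnfrsf13c* (14.6%). In macrophage-like barcodes it lay above 0 for *Cd40* and *Cd40lg* (24.0%) and below 0 for *Tnfsf13b* and *Tnfrsf13b* (13.2%). In endothelial-like barcodes the intervals of all 3 members held 0, while those of 28.0% of all genes lay above and 19.0% below. With 3 to 5 members in a lineage, 1 gene moves these counts far. The median log2 ratio of all genes was 0.11 in T-like, 0.04 in NK-like, 0.06 in macrophage-like and 0.07 in endothelial-like barcodes.

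The genes downstream of these receptors and the interferon response genes were counted as lists. BAFF-R and CD40 act by degrading TRAF3, which frees NIK (*Map3k14*) to start the noncanonical NF-kB pathway, and BCL2 family proteins carry the survival signal. In macrophage-like barcodes the 8 TRAF and cIAP adaptor genes had a median log2 ratio of 0.56, of which 1 reached 1 and none -1. The intervals furthest from 0 were those of *Traf3ip2* (1.22, 0.67 to 1.75), *Traf5* (0.68, 0.47 to 0.88) and *Birc3*, which encodes cIAP2 (0.59, 0.44 to 0.73). *Traf3* stood at 147 CPM in NOD and 101 CPM in CD1. The 4 noncanonical NF-kB genes had a median of 0.04 and the 7 canonical ones 0.04, with none past 1 or -1 in either list. The 9 BCL2 family genes had a median of 0.14 and 1 past 1, *Pim2*, a survival kinase counted with them (1.64). *Bcl2l1*, which encodes the survival factor BCL-XL, was at 0.59. Lower in NOD were *Bcl2a1d* (-0.85, -1.01 to -0.70) and *Bcl2a1b* (-0.35, -0.42 to -0.28), survival genes of the A1 family, whose near-identical copies can split reads. Of the 6 genes for ligand processing and partners none was past 1 or -1, and *Adam10*, a protease that sheds BAFF receptors, was at -0.53.

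Interferon response genes were higher in NOD in the same barcodes in which BAFF was lower. In macrophage-like barcodes the 10 genes had a median log2 ratio of 1.69 and 8 of them reached 1. *Cxcl9*, a T cell attracting chemokine, stood at 326 CPM in NOD and 32.4 CPM in CD1, a log2 ratio of 3.33 (3.20 to 3.47). *Cxcl10* was at 1.97 (1.84 to 2.09) and *Ifit1* at 2.17 (1.82 to 2.51). *Irf8* was at -0.14 (-0.21 to -0.06). In T-like barcodes 9 of the 10 reached 1, with *Cxcl9* at 0 UMIs in CD1. In NK-like barcodes 4 reached 1 and 1 reached -1, and in endothelial-like barcodes 5 reached 1. Of the 8 B cell receptor signalling genes measured in macrophage-like barcodes 3 reached 1, and these were the B cell genes *Cd79a*, *Cd79b* and *Ms4a1* at 6.99, 14.5 and 6.76 CPM in NOD, with *Cd79a* resting on 30 and 3 UMIs. The same genes were at 160.0, 243 and 157 CPM in NOD empty droplets.

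**Figure D5:**
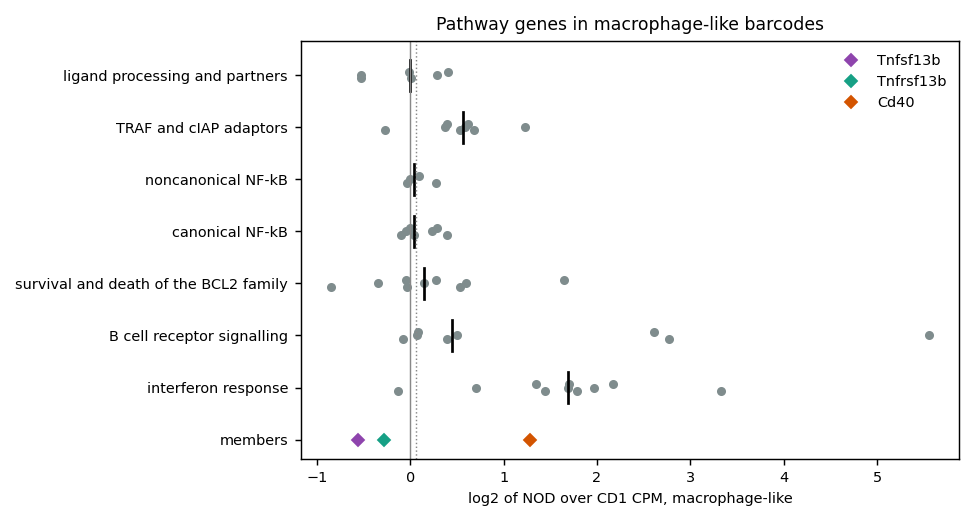
Log2 of the NOD over the CD1 level in macrophage-like barcodes (x axis) for the genes of 7 lists (rows, grey points, with the list median in black) and for 3 members (diamonds). The dotted line marks the median of all genes (0.06). Interferon response genes had a median of 1.69, while *Tnfsf13b* stood at -0.57.

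Downstream genes in T-like barcodes were mixed. *Traf5*, an adaptor of the tumor necrosis factor receptors, was at 1.16 (0.73 to 1.62), *Rel* at 1.23 (0.87 to 1.60), *Nfkb2* at 0.94 (0.28 to 1.69) and *Bcl2*, the survival factor, at -1.22 (-1.31 to -1.13), the latter with 430.0 CPM in NOD against 1002 CPM in CD1. The 4 noncanonical NF-kB genes had a median of 0.65 and none reached 1. T-like barcodes with neither *Cd4*, *Cd8a*, *Cd8b1* nor *Foxp3* were 527 of 2182 in NOD and 90 of 152 in CD1. The part of this make-up in the T-like ratios, here and for the interferon response genes, was not tested. Within NOD B-like barcodes *Traf3* was at 383 CPM, *Birc3* at 353 CPM, *Map3k14* at 81.2 CPM, *Bcl2* at 468 CPM and *Mcl1* at 362 CPM, against 147, 126, 112, 263 and 333 CPM in NOD macrophage-like barcodes. *Sdc1*, the plasma cell proteoglycan that binds APRIL, was at 228 CPM in NOD plasma-like barcodes and at 2.2 CPM in B-like ones.

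The genes whose levels most resembled each member were taken over the 12 profiles of lineage and library with at least 50 barcodes, among 17255 genes, as Pearson correlations of log2 (CPM + 10). The profiles share their libraries, so these are descriptions only. *Tnfsf13b* was closest to *Gm52732*, *Eya4* and *Cyp27a1*, a sterol hydroxylase (r = 0.99 for all 3), and *Cyp27a1* stood at 99.5 CPM in CD1 and 78.8 CPM in NOD macrophage-like barcodes. *Cd40lg* was closest to *Cd4* and *Cd6* (r = 0.99) and *Trat1* (r = 0.98), all T cell genes. *Tnfrsf13b* was closest to *Rnase6* (r = 0.96), *Rubcnl* (r = 0.95) and *6330537M06Rik* (r = 0.94), and *Rnase6* stood at 125 CPM in B-like, 91.7 CPM in plasma-like and 49.2 CPM in macrophage-like barcodes of NOD. *Tnfrsf13c* was closest to *Gm35219*, *Cdh17* and *Gm33843* (r = 0.98, 0.98 and 0.97), and *Cd40* to *Tomt*, *Havcr1* and *Gm40085* (r = 0.98, 0.97 and 0.97). *Tnfrsf17* was closest to the immunoglobulin segments *Ighv1-75*, *Ighv1-54* and *Igkv8-24* (r = 0.999 for all 3), whose counts can be split among near-identical copies. The only plasma-like profile was that of NOD, and in any other these segments had at most 2 UMIs, so that profile sets the correlations. Some of the named genes were low, with highest levels of 6.82 CPM for *Gm52732* and 2.64 CPM for *6330537M06Rik*.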

How the data were processed

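Unfiltered gene by barcode UMI counts for 1 NOD/ShiLtJ and 1 CD1 library were deposited by the authors. The submitters' processing notes name Cell Ranger 8.0.0, Seurat 5.0.1, R 4.3.1 and GRCm39. The deposited counts carry no cell filter or scaling. The study's methods and the labels differ in the dissociation enzymes (collagenase/hyaluronidase or Liberase, each with dispase).

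Barcodes with at least 500 UMIs and 300 genes were kept. A barcode took the lineage of the marker list (15 lists) with the most UMIs, given at least 3 UMIs from at least 2 markers and at least 2 times the next list, and the others stayed unassigned. Doublets were kept in the reported values and removed in an alternative. UMIs were summed per lineage and library. Levels have exact Poisson intervals, shares have Clopper-Pearson intervals and log2 ratios have conditional binomial intervals, all at 95%. PCR copies are collapsed by UMIs, and the intervals cover counting error only. A lineage was compared with at least 50 barcodes in each library. The background of ratios was taken over genes with at least 20 UMIs. Free RNA was estimated from droplets of 10 to 100 UMIs, scaled to marker genes the lineage should lack. Clusters (scanpy, without the 7 genes) served as an alternative and as description. Tools were Python 3.11.15, numpy 2.4.6, scipy 1.17.1, pandas 2.3.3, scanpy 1.11.5 and matplotlib 3.10.9. The ratio step was tested on simulated data.

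The members, lists and thresholds were chosen with earlier results of these data known. The clusters described were chosen after their values were seen. The pathway genes to be named were, in each list and direction, at most 3 whose interval lay furthest from 0, and for each member the 3 genes with the highest correlation. *Traf3*, *Irf8*, *Cyp27a1* and *Rnase6* levels, and the genes named in B-like and plasma-like barcodes, were chosen after their values were seen. The alternatives changed the mitochondrial limit, the depth minimum, doublets, the lineage rule, the scaling, the weight of a barcode, free RNA and thinning. Results that need certain withheld genes are not reported here.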

Additional observations from a re-analysis of the deposited data

How the results depend on the processing

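Of the ratios whose interval excluded 0, 2 turned direction, both after thinning to 500 UMIs, *Cd40lg* in T-like barcodes to -0.16 (1.07 as reported) and *Tnfsf13b* in T-like barcodes to -1.26 (1.88 as reported), and the cause was not tested. In endothelial-like barcodes 2 ratios whose interval held 0 changed sign, *Cd40* (-0.24) to 0.96 after thinning, and *Tnfsf13b* (-0.70) to 0.53 with clusters in place of barcodes, 0.48 as a mean of barcode CPM, 0.39 with free RNA subtracted and 0.45 after thinning. *Cd40lg* in T-like barcodes was at 1.61 with clusters in place of barcodes and at 0.71 as a mean of barcode CPM. In the cluster alternative the CD1 T-like clusters took in 103 barcodes led by *Stab2* and *Thsd4*, with 0 *Cd40lg* UMIs. The NOD cluster led by these genes had no name and was left out. The other CD1 T-like cluster stood at 89.0 CPM, so the value of 1.61 does not compare like clusters. *Tnfsf13b* in macrophage-like barcodes was at -0.69 as a mean of barcode CPM and at -0.76 after thinning, and *Tnfrsf13c* in NK-like barcodes was at -0.079 after thinning. With Scrublet doublets removed, the share of UMIs was 81.8% for *Tnfsf13b* in macrophage-like (NOD), 98.9% for *Tnfsf13b* in macrophage-like (CD1), 91.2% for *Cd40lg* in T-like (NOD), 48.9% for *Tnfrsf13b* in B-like (NOD), 94.2% for *Tnfrsf13b* in macrophage-like (CD1), 89.1% for *Tnfrsf13c* in B-like (NOD), 86.4% for *Tnfrsf13c* in NK-like (CD1) and 70.5% for *Cd40* in B-like (NOD). With a stricter lineage margin (5 times the next list), the share of UMIs was 71.7% for *Tnfsf13b* in macrophage-like (NOD), 92.4% for *Tnfsf13b* in macrophage-like (CD1), 79.4% for *Cd40lg* in T-like (NOD), 41.0% for *Tnfrsf13b* in B-like (NOD), 82.0% for *Tnfrsf13b* in macrophage-like (CD1), 81.2% for *Tnfrsf13c* in B-like (NOD), 60% for *Tnfrsf13c* in NK-like (CD1) and 60.8% for *Cd40* in B-like (NOD). After thinning to 500 UMIs, the share of UMIs was 71.6% for *Tnfsf13b* in macrophage-like (NOD), 94.5% for *Tnfsf13b* in macrophage-like (CD1), 88.1% for *Cd40lg* in T-like (NOD), 55.1% for *Tnfrsf13b* in B-like (NOD), 91.3% for *Tnfrsf13b* in macrophage-like (CD1), 92.6% for *Tnfrsf13c* in B-like (NOD), 40.0% for *Tnfrsf13c* in NK-like (CD1), 100% for *Tnfrsf17* in plasma-like (NOD) and 77.4% for *Cd40* in B-like (NOD). With clusters in place of barcodes, the share of UMIs was 91.1% for *Tnfsf13b* in macrophage-like (CD1), 81.3% for *Cd40lg* in T-like (NOD), 48.0% for *Tnfrsf13b* in B-like (NOD), 81.7% for *Tnfrsf13b* in macrophage-like (CD1), 89.0% for *Tnfrsf13c* in B-like (NOD) and 85% for *Tnfrsf13c* in NK-like (CD1). With no lineage margin, the share of UMIs was 97.2% for *Tnfsf13b* in macrophage-like (CD1), 91.2% for *Cd40lg* in T-like (NOD), 86.6% for *Tnfrsf13b* in macrophage-like (CD1) and 88.7% for *Tnfrsf13c* in B-like (NOD). With free RNA subtracted, the share of UMIs was 96.0% for *Tnfsf13b* in macrophage-like (CD1), 88.5% for *Tnfrsf13c* in B-like (NOD) and 99.7% for *Tnfrsf17* in plasma-like (NOD). In barcodes of 5000 UMIs or more, the share of UMIs was 61.7% for *Cd40* in B-like (NOD). In CD1, *Tnfrsf17* in plasma-like barcodes had 0 UMIs with Scrublet doublets removed and after thinning, which leaves 14 barcodes of 500 UMIs each. In both settings too few UMIs were left to read a lower level. Without the minimum of 20 UMIs, genes past a log2 ratio of 1 and of -1 numbered 8576 and 2594 in T-like, 4435 and 3184 in NK-like, 4081 and 5562 in macrophage-like and 4302 and 4506 in endothelial-like barcodes, since genes with few UMIs then enter. With it they numbered 1755 and 869, 786 and 526, 1178 and 924, and 1128 and 594. The alternatives without shared barcodes and with only barcodes of 5000 UMIs or more were chosen after seeing the data. Of 745 alternative values 575 stayed within the counting interval or, for numbers of genes, near the reported number. No paired analysis was possible because each strain has 1 library and the labels carry no replicate numbers. The CD1 B-like, plasma-like and T-like values rest on 9, 14 and 152 barcodes, and mouse to mouse spread is not measured.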
